A study of Bos taurus with 6 samples.

Results

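Mature miRNAs with a name that general knowledge of lipid metabolism and fat cell formation ties to these processes were followed in intramuscular fat (IMF) of Qinchuan cattle. They were the rows of the miRNA count data named bta-miR-103, bta-miR-107, bta-miR-27a, bta-miR-27b, bta-miR-33a, bta-miR-33b, bta-miR-378, bta-miR-148a, bta-miR-224 or bta-miR-122, with or without an arm ending, and these were 11 of 8800 rows, of which 793 were known bovine miRNAs. IMF was dissected from the sternomandibularis muscle of male Chinese Qinchuan cattle at 24 months of age. Steers had been castrated by surgery at 6 months, and bulls were left intact. Both groups were weaned at 3 months, descended from 1 sire and received the same feed. Small RNA was sequenced in 2 libraries of steers and 2 of bulls, and mRNA in 1 library of each. Each miRNA library held RNA pooled from 3 animals and each mRNA library RNA pooled from 6 by the design text, whereas the sample labels give 1 and 3. The sources thus differ on whether a miRNA library is a pool or 1 animal, and the p-values measure only the spread between these libraries.

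A mature miRNA guides a silencing complex to messenger RNAs that pair with its seed, bases 2 to 8 from its 5′ end, and lowers their stability or translation. In fat tissue, miR-27a and miR-27b are known as brakes on adipocyte differentiation, and miR-103, miR-107, miR-148a and miR-378 as miRNAs that accumulate or act during it. The miR-33 pair lies inside the sterol regulatory genes SREBF2 and SREBF1 and is known for holding back cholesterol efflux and fatty acid oxidation, miR-224 has been tied to early adipogenesis, and miR-122 is the leading miRNA of liver.

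The sequences of the 10 miRNAs that could be tested show why they form families. They were read from the study's supplementary list of known bovine miRNAs, run 5′ to 3′ in DNA letters, and carry their seed in capitals.

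bta-miR-33a: gTGCATTGtagttgcattgca

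bta-miR-33b: gTGCATTGctgttgcattgc

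bta-miR-27a-3p: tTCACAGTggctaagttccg

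bta-miR-27b: tTCACAGTggctaagttctgc

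bta-miR-27a-5p: aGGGCTTAgctgcttgtgagca

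bta-miR-103: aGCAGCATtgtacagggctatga

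bta-miR-107: aGCAGCATtgtacagggctatc

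bta-miR-148a: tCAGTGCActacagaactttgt

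bta-miR-378: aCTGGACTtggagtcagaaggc

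bta-miR-224: cAAGTCACtagtggttccgttta

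The 11 sequences held 8 seeds, and 3 of the seeds were shared by a pair of members, miR-33a with miR-33b, miR-27a-3p with miR-27b, and miR-103 with miR-107. With positions counted from 1 at the 5′ end and the first-named miRNA's base given first, miR-103 and miR-107 differed by G22C over 22 compared bases, and miR-27a-3p and miR-27b by C19T over 20. miR-33a and miR-33b differed by T9C and A10T over 20 compared bases, just past the seed. How reads that match both sequences of a near-identical pair were assigned is not given in the sources used here. The separate counts of miR-103 and miR-107 and of miR-27a-3p and miR-27b are therefore uncertain. The same holds for miR-378 and miR-378c, a row outside the members, whose sequences differ only at the 3′ end.

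The 4 miRNA libraries held 6556511 to 10452582 counts. The share of miR-143 and miR-10b together was 45.8% and 33.8% in the steers libraries against 25.8% and 19.3% in the bulls libraries, and the TMM factors, edgeR's scaling for such differences in make-up, ran from 0.746 to 1.42. The adipocyte genes ADIPOQ (4513 counts in steers and 6651 in bulls) and PLIN1 (4499 and 5386 counts) were high in the mRNA libraries, as was the muscle actin gene ACTA1 (13852 and 19910 counts), so the dissected fat held muscle RNA. The 6 skeletal muscle miRNAs of a marker list summed to 1646 and 3264 CPM (counts scaled to the library total) in steers and 5673 and 7673 in bulls. Most of this sum was miR-133a (1506 and 3022 CPM in steers, 5191 and 7093 in bulls). The 5 immune miRNAs summed to 674 and 636 CPM in steers and 2525 and 1942 in bulls, the 3 erythroid miRNAs to 2536 and 7114 against 2184 and 2499.7, and the 5 of 6 listed epithelial miRNAs that had a row to 0.765 and 0.903 against 4.50 and 5.34. The erythroid sum was nearly all miR-486 (2519 and 7102 CPM in steers, 2115 and 2426 in bulls), whereas miR-451 (16.7 and 11.7 against 66.9 and 72.4 CPM) and miR-144 (0.383 and 0.226 against 1.93 and 1.37 CPM) lay lower in both steers libraries. miR-141 made up most of the epithelial sum (0.574 and 0.677 against 3.85 and 3.36 CPM). Its log2 fold change, steers minus bulls, was -2.08 (adjusted p = 0.0194, edgeR's quasi-likelihood test). Of the sparser epithelial markers, miR-200b was at 0 in 3 of the 4 libraries, its 1 count lying in the first steers library. miR-200c was at 0 in both steers libraries. Most of the immune sum was miR-142-5p (426 and 394 CPM in steers, 1985 and 1437 in bulls). Once scaled by the TMM factors, miR-206 of the muscle list and miR-155 and miR-142-3p of the immune list overlapped between the groups. The part of these differences in the results below was not tested.

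Of the 11 miRNAs, 2 were downregulated in steers, miR-224 and miR-33b, and none was upregulated. The remaining 8 that could be tested did not pass, and miR-122 had too few counts. The test was edgeR's quasi-likelihood test over the 1073 rows that passed its filter on low counts, and a call needed an adjusted p under 0.05 together with a fold change over 2. At these settings 7.08% of all rows were called lower and 7.08% higher in steers, and of the 396 known bovine miRNAs in the fit 7.58% were called lower and 5.05% higher. At an unadjusted p under 0.05, 3 of the 10 members passed, all of them lower in steers, against 26.5% of known bovine miRNAs in either direction. DESeq2 and limma-voom also called 2 members lower and 0 higher, but the number called lower was 0 with total counts, 1 with no filter on low counts, 0 without the first or the second steers library and 1 without the first bulls library. With upper-quartile factors the split over all rows was 52 lower and 101 higher, against 76 and 76 with TMM factors, and the members' calls were 2 and 0 again. The log2 fold changes, steers minus bulls, were below 0 for 6 members and above 0 for 4, with a median of -0.38 against -0.07 over all rows tested and -0.15 over known bovine miRNAs. By TMM-scaled CPM, both steers libraries lay below both bulls libraries for 5 members and above them for 4, whereas 35.4% of known bovine miRNAs lay apart in the lower direction and 24% in the higher. In bulk tissue, fewer cells of a type and less RNA per cell cannot be told apart.

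**Figure D1:**
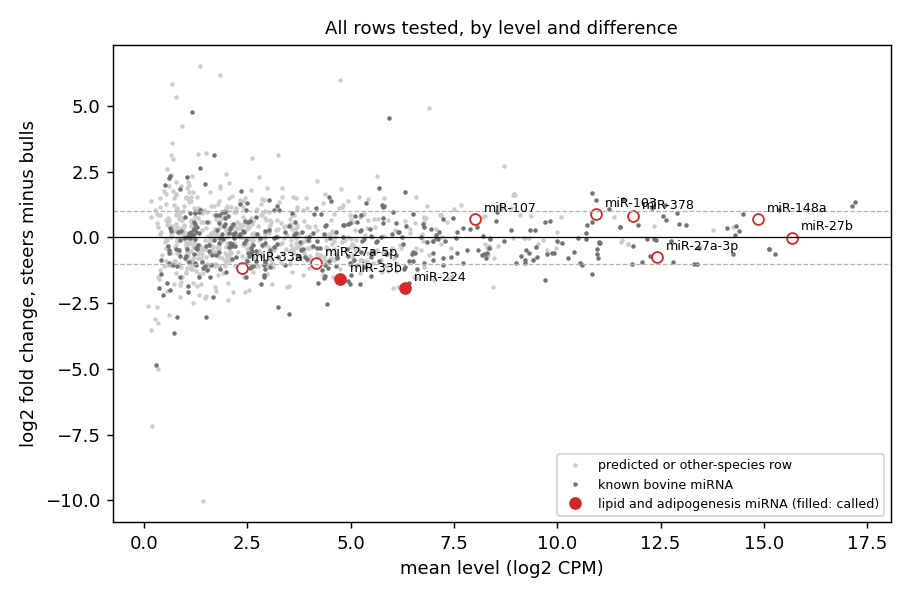
Each of the 1073 rows tested is a point at its mean level (log2 CPM, horizontal) and its log2 fold change, steers minus bulls (vertical), with the 10 miRNAs followed here as circles, filled where called. The filled circles, miR-224 and miR-33b, sit below the lower 2-fold line, and the 5 most abundant of the circles lie between -0.75 and 0.89.

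The levels of the members spanned more than 3 orders of magnitude. As the mature sequences ran from 20 to 23 bases, counts were compared between miRNAs without a length correction. Differences between sequences in how well they are captured were not corrected either, so the order below is one of counts. In every library the order began with miR-27b, the third most abundant known bovine miRNA, followed by miR-148a, the eighth. Next came miR-27a-3p and miR-378, which overlapped in steers (4455 and 4026 against 4359.8 and 5476 TMM-scaled CPM) and not in bulls (8804 and 5497.5 against 3404 and 2213). miR-103 and then miR-107 followed in all 4 libraries. miR-224 lay below miR-107 in every library, further below in steers (40.2 and 41.1 against 338 and 321) than in bulls (182 and 130 against 245 and 161). miR-33b and miR-27a-5p overlapped in steers and not in bulls, and miR-33a was the lowest of the 10 everywhere.

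**Figure D2:**
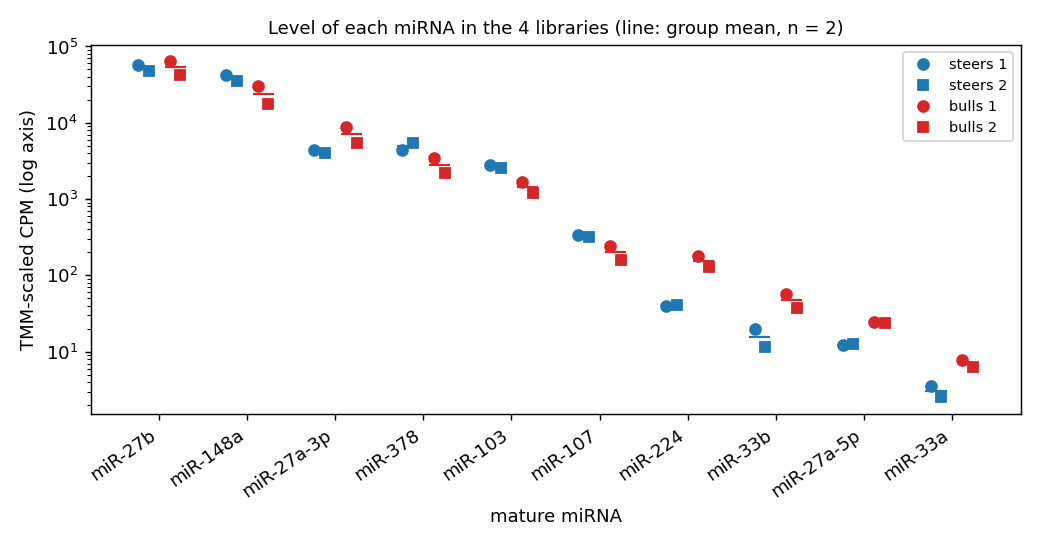
TMM-scaled CPM (log axis) of the 10 miRNAs in steers (blue) and bulls (red), with circles for the first and squares for the second library of a group and a line at the mean of 2 libraries. From miR-224 to miR-33a on the right, each steers point lies below both bulls points, and for miR-148a, miR-378, miR-103 and miR-107 each steers point lies above both.

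miR-224 had the largest difference of the members. It had 313 and 352 counts in the steers libraries against 1376 and 1211 in the bulls libraries, or 40.2 and 41.1 TMM-scaled CPM in steers and 182 and 130 in bulls. The groups did not overlap, and the means were 40.6 ± 0.663 in steers and 156 ± 36.9 in bulls (SD, n = 2 libraries each). It was 3.84-fold lower in steers (log2 fold change -1.94, SE 0.48, adjusted p = 0.0015, edgeR's quasi-likelihood test). When 1 library was left out, the log2 fold change stayed between -2.20 and -1.49, but the call was lost without the first steers library (adjusted p = 0.239) and without the second (adjusted p = 0.461). With total counts in place of TMM factors, the log2 fold change was -2.38 with an adjusted p of 0.0693, and the median of all rows then lay at -0.56.

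In the RefSeq annotation of ARS-UCD2.0, the miR-224 gene lies within GABRE, a gene of a GABA-A receptor subunit, and within 2 kb of the miR-452 and miR-3431 genes. miR-452 had 186 and 180 counts in the steers libraries against 417 and 318 in the bulls libraries, and its difference did not pass the test (log2 fold change -0.99, SE 0.48, adjusted p = 0.154). miR-3431 had 365 and 386 counts in the steers libraries against 515 and 347 in the bulls libraries, which overlapped (log2 fold change -0.20, SE 0.46, adjusted p = 0.811, edgeR's test). Within a library, where scaling plays no part, there were 1.68 and 1.96 counts of miR-224 per count of miR-452 in steers and 3.30 and 3.81 in bulls. This ratio was higher in both bulls libraries than in either steers library, by 0.97 on the log2 scale. The exact permutation test over libraries gave p = 0.333 (two-sided), the smallest that 2 against 2 libraries allow, and 0.583 after Benjamini-Hochberg adjustment over the 7 ratios compared. The host gene GABRE had 55 mRNA counts in the steers library against 146 in the bulls library, 2.89-fold lower in steers after scaling (log2 ratio -1.53, 95% Clopper-Pearson interval -2.01 to -1.07, 1 library a group).

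Over the 4 libraries, the known bovine miRNAs with the profile most like that of miR-224 were miR-499, miR-411c-5p and miR-665, at Euclidean distances of 0.216, 0.350 and 0.383 in centred log2 TMM-scaled CPM among 395 candidates. All 3 were also called lower in steers, with log2 fold changes of -1.76, -1.66 and -1.75 by edgeR's test. miR-499, which is encoded in a myosin gene of slow muscle, belongs to the muscle marker list, and the part of muscle RNA in the miR-224 counts was not tested.

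The miR-33 pair lay lower in steers in both libraries. miR-33b had 155 and 98 counts in the steers libraries against 432 and 345 in the bulls libraries, or 19.9 and 11.4 TMM-scaled CPM in steers and 57.1 and 37.0 in bulls. The steers libraries lay below the bulls libraries without overlap, with means of 15.7 ± 5.97 and 47.1 ± 14.3 (SD, n = 2). It was 3.00-fold lower in steers (log2 fold change -1.59, SE 0.49, adjusted p = 0.0149, edgeR's quasi-likelihood test). The log2 fold change was -2.00 without the first steers library and -1.21 without the second. It was -1.05 without the first bulls library and -1.90 without the second. The call was lost in the first 3 of these fits. Each fit leaves 1 library in a group, so a lost call cannot show that the result rested on the library removed. The call was also lost with total counts (-2.06, adjusted p = 0.0723) and with no filter on low counts (-1.66, adjusted p = 0.0649). With total counts and miR-143 and miR-10b left out, it was lost as well (-1.67, adjusted p = 0.0522).

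miR-33a was the scarcer of the pair, at 28 and 22 counts in the steers libraries against 59 and 58 in the bulls libraries. Its levels were 3.59 and 2.57 TMM-scaled CPM in steers and 7.80 and 6.22 in bulls, again without overlap. The difference had an unadjusted p of 0.0274 and did not pass after adjustment (log2 fold change -1.18, SE 0.54, adjusted p = 0.125, edgeR's quasi-likelihood test). Each count of miR-33a was accompanied by 5.54 and 4.45 counts of miR-33b in steers and by 7.32 and 5.95 in bulls. That ratio was higher in both bulls libraries, by 0.41 on the log2 scale (exact permutation test, two-sided, p = 0.333, adjusted p = 0.583). Whether the members of the pair differ in their response was thus not shown.

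The profiles most like that of miR-33b were those of miR-106b, miR-136 and miR-3613a, at distances of 0.195, 0.216 and 0.229 among 395 known bovine miRNAs over the 4 libraries. Their log2 fold changes were -1.45, -1.47 and -1.78, and each was called by edgeR's test.

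The 2 arms of miR-27a and the mature miR-27b did not pass the test. miR-27a-3p had 34721 and 34478 counts in the steers libraries against 66561 and 51279 in the bulls libraries, or 4455 and 4026 TMM-scaled CPM against 8804 and 5497.5. The steers libraries lay below the bulls libraries, but the gap was small beside the difference between the bulls libraries (means 4241 ± 304 and 7151 ± 2338, SD, n = 2, log2 fold change -0.75, SE 0.47, adjusted p = 0.279, edgeR's quasi-likelihood test). The passenger arm miR-27a-5p had 95 and 108 counts in the steers libraries against 188 and 220 in the bulls libraries, with 12.2 and 12.6 TMM-scaled CPM against 24.9 and 23.6 (log2 fold change -0.97, SE 0.51, adjusted p = 0.204). Both arms thus lay lower in both steers libraries, and neither difference passed. For miR-27a-3p the size rested on the bulls libraries, with log2 fold changes of -0.19 without the first (adjusted p = 0.842) and -1.09 without the second (adjusted p = 0.0681), and it was -1.18 with total counts (adjusted p = 0.0697).

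miR-27b, at 57879 and 47784 TMM-scaled CPM in steers and 63756 and 42569.5 in bulls, showed groups that overlapped, with means of 52832 ± 7138 and 53163 ± 14981 (SD, n = 2). Its log2 fold change was -0.01 (SE 0.42, adjusted p = 0.994, edgeR's quasi-likelihood test), and its sign turned under 8 of the alternatives, between -0.46 and 0.50. By total CPM alone, both steers libraries (43151 and 46188) lay below both bulls libraries (61919 and 60562). When miR-27a-3p and miR-27b were summed, the log2 fold change was -0.06 (SE 0.41, adjusted p = 0.944).

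Within libraries, the ratio of the miR-27 pair lay apart in the groups. There were 13.0 and 11.9 counts of miR-27b for each count of miR-27a-3p in steers, and 7.24 and 7.74 in bulls. The log2 ratio of miR-27a-3p to miR-27b was -3.63 ± 0.092 in steers and -2.90 ± 0.068 in bulls (SD, n = 2), a difference of -0.73 with no overlap. The exact permutation p was 0.333 (two-sided, adjusted p = 0.583), which any ratio without overlap gives in this design, and 4 of the 7 ratios compared had it. Without any 1 library the difference lay between -0.79 and -0.66. The count of miR-27a-3p for each count of miR-27a-5p was 365 and 319 in steers and 354 and 233 in bulls, which overlapped.

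Each miR-27 gene sits in a cluster. In the RefSeq annotation, the miR-27a gene lies within 2 kb of the miR-23a and miR-24-2 genes, and the miR-27b gene within 2 kb of miR-23b, miR-24-1 and miR-2475 and inside AOPEP, an aminopeptidase gene. For each count of miR-23a there were 2.19 and 2.85 counts of miR-27a-3p in steers and 3.21 and 2.78 in bulls, and for each count of miR-23b-3p there were 33.8 and 39.4 counts of miR-27b in steers and 36.2 and 35.8 in bulls. Neither ratio separated the groups (exact permutation test, two-sided, p = 0.667 and p = 1, adjusted p = 0.778 and 1). None of the neighbours passed edgeR's test, with log2 fold changes of -0.45 for miR-23a (adjusted p = 0.560), -0.49 for miR-24-3p (adjusted p = 0.539), -1.08 for the row named miR-24 (adjusted p = 0.160) and -0.01 for miR-23b-3p (adjusted p = 0.993). miR-2475, with 3 and 0 counts in the steers libraries against 0 and 3 in the bulls libraries, was not tested. A miR-24 gene lies in each cluster, and the counts of the rows named miR-24-3p and miR-24 were not assigned to either.

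**Figure D3:**
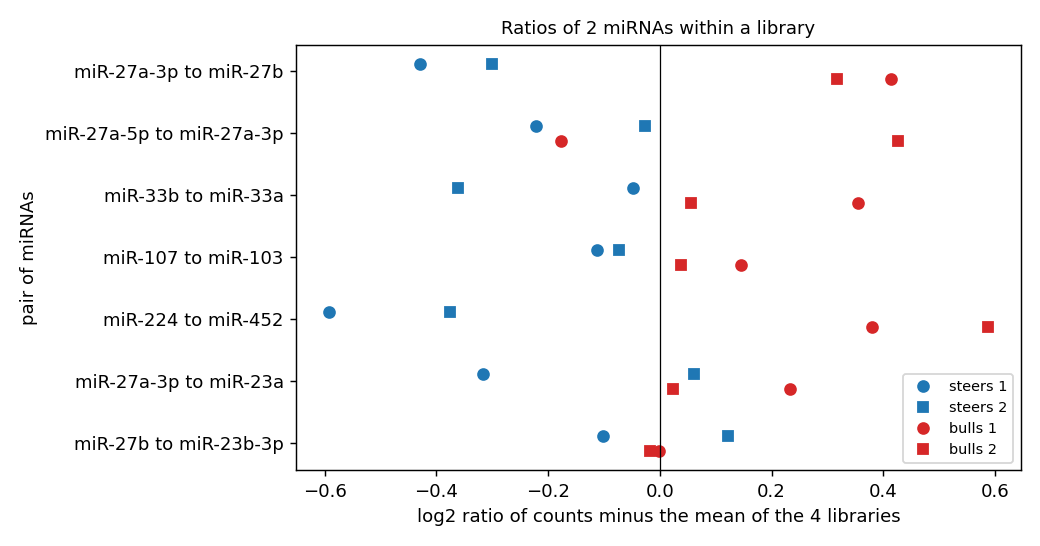
Log2 ratio of the counts of 2 miRNAs within each library, centred on the mean of the 4 libraries (horizontal), for 7 pairs, with steers in blue and bulls in red. The steers and bulls points are apart for miR-27a-3p to miR-27b, miR-33b to miR-33a, miR-107 to miR-103 and miR-224 to miR-452, and overlap for the other 3 pairs.

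miR-103 and miR-107 lay higher in both steers libraries without passing the test. miR-103 had 21671 and 22046 counts in the steers libraries against 12731 and 11157 in the bulls libraries, or 2781 and 2574 TMM-scaled CPM against 1684 and 1196. The groups did not overlap, the means were 2678 ± 146 and 1440.1 ± 345 (SD, n = 2), and the log2 fold change was 0.89 (SE 0.48, adjusted p = 0.214, edgeR's quasi-likelihood test). Fitted among known bovine miRNAs alone, miR-103 was called higher (log2 fold change 1.04, adjusted p = 0.0110), and without the first bulls library it was called as well (1.35, adjusted p = 0.0439). It was smaller without the second bulls library (0.64, adjusted p = 0.430) and with total counts (0.45, adjusted p = 0.291).

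miR-107 had 2632 and 2752 counts in the steers libraries against 1849 and 1504 in the bulls libraries, or 338 and 321 TMM-scaled CPM against 245 and 161, and its log2 fold change was 0.70 (SE 0.49, adjusted p = 0.352, edgeR's test). This value was 1.22 without the first bulls library, 0.40 without the second and 0.27 with total counts, none of which passed. Fitted among known bovine miRNAs alone, miR-107 had a log2 fold change of 0.86 (adjusted p = 0.0220, edgeR's test), short of 2-fold. The sum of the miR-103 and miR-107 rows gave 0.89 (SE 0.48, adjusted p = 0.208). For each count of miR-107 there were 8.23 and 8.01 counts of miR-103 in steers and 6.89 and 7.42 in bulls. The steers ratios lay apart from the bulls ratios by 0.18 on the log2 scale (exact permutation test, two-sided, p = 0.333, adjusted p = 0.583).

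miR-148a, the second most abundant of the members, had 328671 and 303960 counts in the steers libraries against 226043 and 165083 in the bulls libraries. Its levels were 42176 and 35493 TMM-scaled CPM in steers and 29899.9 and 17698 in bulls, with means of 38835 ± 4725 and 23799 ± 8628 (SD, n = 2). Steers lay above bulls without overlap, and the log2 fold change was 0.71 (SE 0.43, adjusted p = 0.272, edgeR's quasi-likelihood test). It was called only without the first bulls library, at 1.32 (adjusted p = 0.0115), among the alternatives run, and it was 0.34 without the second (adjusted p = 0.608) and 0.28 with total counts (adjusted p = 0.352). The miRNAs with the same seed, miR-148b and miR-152, had log2 fold changes of 0.29 (adjusted p = 0.734) and -0.04 (adjusted p = 0.974), both with overlapping groups in TMM-scaled CPM.

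miR-378 had 33975 and 46897 counts in the steers libraries against 25735 and 20644 in the bulls libraries, or 4359.8 and 5476 TMM-scaled CPM against 3404 and 2213. The steers libraries lay above the bulls libraries on this scale (log2 fold change 0.81, SE 0.47, adjusted p = 0.251, edgeR's quasi-likelihood test) and overlapped them by total CPM, at 3250.4 and 5293 against 3306 and 3149. Without the first bulls library, miR-378 was called at 1.34 (adjusted p = 0.0378), whereas it had 0.50 without the second (adjusted p = 0.531) and 0.40 with total counts (adjusted p = 0.417). miR-378c carries the same seed, and its sequence differs from that of miR-378 only at the 3′ end, so their separate counts are uncertain. It had 502 and 666 counts in the steers libraries against 383 and 320 in the bulls libraries. Its log2 fold change was 0.74 (SE 0.46, adjusted p = 0.279, edgeR's test).

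**Figure D4:**
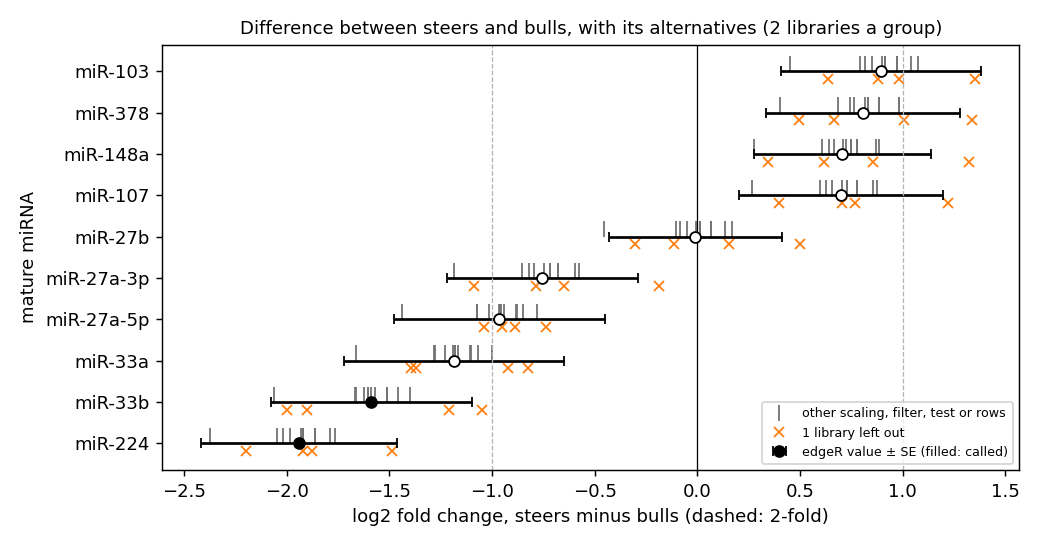
Log2 fold change, steers minus bulls (horizontal), of each miRNA by edgeR with its SE (circle and bar, filled where called), with the values under other scalings, filters, tests or row sets (grey ticks) and with 1 library left out (orange crosses). The values of miR-224 stay between -2.38 and -1.49 and those of miR-33b between -2.06 and -1.05, while those of miR-27b fall on both sides of 0.

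Across the alternatives, 9 of the 10 miRNAs kept 1 direction, 5 of them lower and 4 higher in steers, and miR-27b did not. miR-122, the liver miRNA, had 1 and 3 counts in the steers libraries against 2 and 0 in the bulls libraries and was not tested. A count of 0 in the second bulls library allows up to 0.458 CPM, counting error only, which lies above the levels of 0.0957 to 0.339 CPM in the other libraries. No difference in miR-122 was detectable at this depth.

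The host genes of these miRNAs and genes that earlier work names as their targets were read in the mRNA data, in which a single pooled library stood for each group and no test was possible. Values are log2 ratios of counts scaled by median-of-ratios factors, steers to bulls, with 95% Clopper-Pearson intervals that cover counting error only. A ratio beyond 2-fold is named, a size that 5.34% of the 13501 genes with at least 20 counts exceeded in the higher and 10.2% in the lower direction. Scaling by total counts shifts every ratio by -0.24.

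In RefSeq, 10 genes span a gene of these miRNAs, and 8 of them were listed as hosts. The other 2 were CALCR, around a miR-378 gene and listed at 0 counts in both libraries, and the uncharacterised LOC132345691 around miR-27a, which had no row under that name. Of the 8 host genes, 6 had a row, and GABRE alone lay beyond 2-fold. SREBF1, the sterol regulatory gene of fatty acid synthesis that holds miR-33b, had 1999 counts in the steers library against 1548 in the bulls library, a log2 ratio of 0.25 (0.15 to 0.34). SREBF2, which governs cholesterol genes and holds miR-33a, had 1329 and 1035 counts, a log2 ratio of 0.24 (0.12 to 0.36). The messages of both hosts were thus slightly higher in the steers library, while both miR-33 rows lay lower in steers. With total counts, the ratio of SREBF1 was 0.01 and that of SREBF2 turned to -0.00066.

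PANK1, a pantothenate kinase gene of coenzyme A synthesis that holds miR-107, had 101 and 58 counts, a log2 ratio of 0.68 (0.20 to 1.17). Its relative PANK3, host of a miR-103 gene, had 78 and 51 counts, a ratio of 0.49 with an interval (-0.04 to 1.03) that spans 0. AOPEP, host of miR-27b and matched through its older symbol C8H9orf3, had 705 and 733 counts, a ratio of -0.18 (-0.33 to -0.03). The median over the 6 host genes was 0.24, against 0.02 over all 13501 genes.

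Of 18 genes named as targets elsewhere, 16 had a row, with a median log2 ratio of -0.0025 against 0.02 over all genes. Beyond 2-fold there were 2, ABCA1 and CPT1A, both lower in steers. ABCA1, the cholesterol efflux pump named as a miR-33 target, had 727 counts in the steers library against 1717 in the bulls library, a log2 ratio of -1.36 (-1.49 to -1.24). CPT1A, the gate of mitochondrial fatty acid oxidation and also named for miR-33, had 930 and 2279 counts, a ratio of -1.42 (-1.53 to -1.30). For these 2 genes and for both miR-33 rows, the steers values were the lower ones.

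The other 5 listed miR-33 genes with a row, NPC1, CROT, HADHB, PRKAA1 and SIRT6, had log2 ratios from -0.31 to 0.25. DNMT1, a DNA methyltransferase gene named for miR-148a, had 535 and 536 counts and stood at -0.12 (-0.30 to 0.05).

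PPARG, the master regulator of adipocyte differentiation named for miR-27, had 279 and 205 counts and a log2 ratio of 0.32 (0.06 to 0.59), and its partner RXRA had -0.22 (-0.37 to -0.07). CAV1, a caveolar protein gene named for miR-103 and miR-107, had 12066 and 9891 counts and a ratio of 0.16 (0.13 to 0.20), and DICER1, the miRNA-processing enzyme gene of the same list, stood at 0.13 (-0.16 to 0.43). CRAT, a carnitine acetyltransferase named for miR-378, had 1854 and 1363 counts and a ratio of 0.32 (0.22 to 0.42), and MED13, also named for miR-378, stood at -0.12 (-0.37 to 0.12). The listed miR-224 genes SMAD4 and ACSL4 had ratios of 0.26 (0.10 to 0.42) and -0.17 (-0.42 to 0.07). None of these ratios reached 2-fold.

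Markers of muscle moved in the mRNA libraries too. The 7 muscle genes of a marker list had a median log2 ratio of -0.65, with the slow myosin gene MYH7 at -2.23 (675 counts in steers and 2906 in bulls) and the fast myosin gene MYH1 at 1.15 (247 and 102). The 5 adipocyte genes had a median of -0.38, from -1.06 for FABP4 to 0.28 for CIDEC. The part of these shifts in the ratios of host and target genes was not tested.

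**Figure D5:**
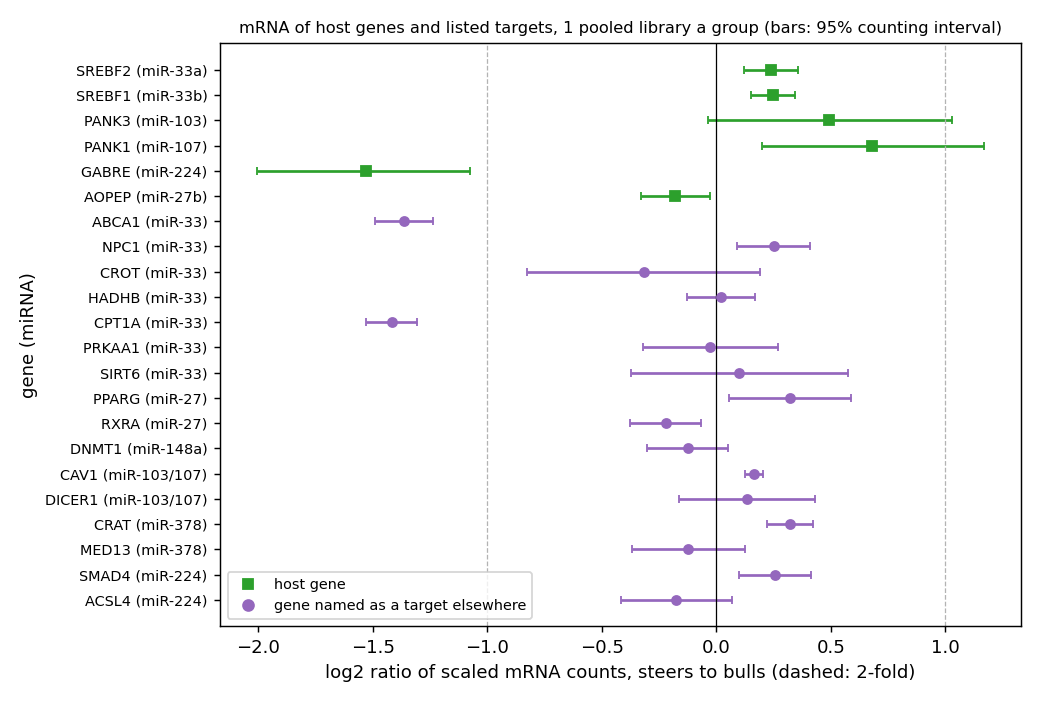
Log2 ratio of scaled mRNA counts, steers to bulls (horizontal), of 6 host genes (squares) and 16 genes named as targets elsewhere (circles), each with the miRNA it belongs to in brackets and with bars for the 95% counting interval, from 1 pooled library a group. GABRE, ABCA1 and CPT1A lie left of the lower 2-fold line, and the rest lie between the 2-fold lines.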

How the data were processed

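The deposited values are raw counts. The authors made the miRNA counts from adaptor-trimmed reads of an Illumina HiSeq 2500, mapped by BWA onto miRBase and the genome of cattle, and added miRDeep predictions and matches to human, mouse and rat miRNAs. The treatment of reads that match several sequences is not given in the sources used here. The mRNA counts come from Ion Proton reads that the authors aligned with MapSplice. The counting program and use of strand are not given there. Totals were 12677375 counts in steers and 9868415 in bulls.

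All miRNA rows that passed filterByExpr were fitted in edgeR 4.0.16 (R 4.3.3) by glmQLFit and glmQLFTest, with TMM factors and group as the only term, and p-values were adjusted over all 1073 rows by the Benjamini-Hochberg method. For the SE, the size of the log2 fold change was divided by the root of the F statistic. Exact permutation tests and Clopper-Pearson intervals came from scipy 1.17.1. EBSeq, the study's tool, was not used. From the listed target genes, 1 is not reported here, and the counts and the median of that list are without it.

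The miRNAs, marker lists and listed genes, from general knowledge, were chosen with earlier results of these data known. Named are the members, the genomic neighbours that have a row, miRNAs with the same seed, host and listed target genes, and the 3 nearest profiles of each called member. Gene positions were read in RefSeq for names and neighbours only. The 22 rows of these families under human, mouse or rat names held 1 to 110 counts each over the 4 libraries and were left out. Sequences were taken from the study's supplementary list, and 766 of the 793 known bovine miRNAs had one. The counts of replicate libraries differed beyond sampling noise.

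The alternatives were total counts, upper-quartile and median-of-ratios factors, 2 other filters, DESeq2 1.42.0, limma-voom (limma 3.58.1), known bovine miRNAs alone, near-identical members summed, the replicate block, each library left out, no fold threshold, and, added after the data were seen, the muscle miRNAs left out and miR-143 and miR-10b left out with total counts.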

Additional observations from a re-analysis of the deposited data

How the results depend on the processing

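Of the 156 values that the alternatives gave for the 10 miRNAs, 134 kept the direction and the side of the threshold. The number of members called lower in steers, 2 as reported, was 0 with total counts and 1 with no filter on low counts. It was 1 with total counts and miR-143 and miR-10b left out. The number called higher, 0 as reported, was 1 (miR-103) among known bovine miRNAs alone and 0 to 3 with 1 library left out, where the 3 called without the first bulls library were miR-103, miR-148a and miR-378. With the lone library of an arm assumed to vary like the other arm, all rows called lower numbered 6 to 45 and all rows called higher 20 to 110 in these fits, against 76 and 76. Rows called over the whole table fell to 0 lower and 1 higher with total counts, and to 36 and 34 with no filter. They fell to 50 and 36 with at least 10 counts in every library. With total counts and miR-143 and miR-10b left out, they numbered 48 lower and 37 higher. Among known bovine miRNAs, 30 were called lower and 20 higher as reported, and 36 and 39 when they were fitted alone. In that edgeR fit, miR-107 (log2 fold change 0.86, adjusted p = 0.0220) and miR-148a (0.87, adjusted p = 0.0241) missed only the fold threshold. The same held for miR-378 (0.98, adjusted p = 0.0277) and miR-27a-3p (-0.59, adjusted p = 0.0489). The cause was not tested.

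The log2 fold change of miR-27b, -0.01 as reported, was 0.17 with upper-quartile factors, 0.0675 with median-of-ratios factors and with DESeq2, 0.0142 with limma-voom, 0.0136 with the replicate block, 0.14 among known bovine miRNAs alone, and -0.30 to 0.50 with 1 library left out. The ratio of miR-27a-5p to miR-27a-3p, -0.25 on the log2 scale, ran from -0.55 to 0.0517 and that of miR-27b to miR-23b-3p, 0.02, from -0.0919 to 0.13 with 1 library left out. Scaled by total counts, SREBF2 had a log2 ratio of -0.00066. Among the listed target genes, CAV1 (-0.075), HADHB (-0.22), SIRT6 (-0.14) and DICER1 (-0.11) also turned from above to below 0 with total counts.

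With the replicate block, 3 members were called lower, the third being miR-33a (log2 fold change -1.19, adjusted p = 0.0207), and calls over all rows numbered 119 lower and 133 higher. The labels tie same-numbered libraries only by number, and the replicate differences of steers and bulls correlated at 0.314 across rows, from only 2 pairs. miR-122 had too few counts and was not tested.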
